A study of Mus musculus with 20 samples.

Results

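Hox genes encode transcription factors that give cells their place along the body axis, and the 39 Hox genes of the mouse were followed here in endothelial cells sorted from sciatic nerve. They were taken as every gene of the deposited count tables whose symbol is Hoxa, Hoxb, Hoxc or Hoxd followed by a number, without antisense or opposite-strand transcripts: 39 of 55376 genes, 11 in the HoxA, 10 in the HoxB, 9 in the HoxC and 9 in the HoxD cluster. Bulk polyA RNA came from adult mice. In the Tomato experiment, Cdh5(PAC)-CreERT2, an inducible Cre under an endothelial cadherin promoter, switched on R26-TomatoLSL, and 5 libraries were of uninjured (intact) nerves, 5 of the lesion bridge 7 days post injury (7 dpi) and 4 of the bridge at 14 dpi. The Cherry experiment used a Kdr-Cherry reporter, always in the 7 dpi bridge, of Plxnd1 KO mice (Cdh5-CreER with Plxnd1 fl/fl, a deletion aimed at endothelium, 3 libraries) or of control mice with Plxnd1 WT (3 libraries). Pooled nerves were digested with enzymes and sorted for reporter without CD45 in both experiments, and the bridge samples carry the word crush in their condition label. Animals are not named per library, so each p-value below weighs a difference against library spread, part of which may be technical.

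The Hox genes lie in 4 clusters that arose by duplication, and genes at the same place in different clusters form paralog groups numbered 1 to 13. Low-numbered genes are switched on first and nearest the head in the embryo, and high-numbered genes later and nearer the tail, with groups 9 to 13 also patterning the limb. Adult cells keep part of the code of the place they came from, fibroblasts and vessels among them. In cultured endothelium Hoxd3, Hoxb3, Hoxb5 and Hoxa9 have been described as promoting vessel growth, and Hoxa5, Hoxd10 and Hoxc9 as restraining it. Hox proteins bind DNA with Pbx and Meis partners, and Polycomb and Trithorax complexes hold the clusters silent or active.

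Read sharing limits some members. HoxA lies on chromosome 6, HoxB on chromosome 11, HoxC on chromosome 15 and HoxD on chromosome 2 (mm10). The exons of Hoxd3 overlapped other genes over 79.3% of their length, those of Hoxb3 over 63.9%, Hoxb2 58.5%, Hoxd4 45.1%, Hoxa3 29.5%, Hoxa7 23.3% and Hoxa2 15%, whereas no exon of a HoxC gene, Hoxa5, Hoxa9, Hoxb7, Hoxb9, Hoxd8 or Hoxd9 overlapped another gene. Strand use in counting is not given in the sources used here. In the shared stretches, reads of Hoxb2 and Hoxb3 cannot be told apart from those of the antisense Hoxb3os, nor those of Hoxa7 from Hoxaas3. Members also share stretches of transcript: of 741 pairs of members, 22 had GENCODE M21 transcripts with an identical run of at least 30 bases and 2 of at least 50. Whether a run lay in the homeobox was not checked, and the 50 bases shared by Hoxb9 and Hoxc9 were mostly a repeat of CT.

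The RefSeq promoter table (GRCm38.p6, windows of 300 bases that end just past a transcription start) held 24 entries for 22 of the members. Those of Hoxa7 (chr6:52218524-52218823, minus strand) and Hoxc4 (chr15:103034145-103034444, plus strand) are shown because the first gene is high and the second near the floor in the Cherry libraries below. Those of Hoxa5 (chr6:52204538-52204837, minus strand) and Hoxd9 (chr2:74697513-74697812, plus strand) are shown because these genes moved opposite ways at 7 dpi. The transcription starts used for Hoxa7, Hoxc4 and Hoxd9 lie inside those genes' deposited spans. Capitals mark matches, on either strand, to the 5 motifs spelled out after them, and no matches overlap in these 4 windows.
Hoxa7: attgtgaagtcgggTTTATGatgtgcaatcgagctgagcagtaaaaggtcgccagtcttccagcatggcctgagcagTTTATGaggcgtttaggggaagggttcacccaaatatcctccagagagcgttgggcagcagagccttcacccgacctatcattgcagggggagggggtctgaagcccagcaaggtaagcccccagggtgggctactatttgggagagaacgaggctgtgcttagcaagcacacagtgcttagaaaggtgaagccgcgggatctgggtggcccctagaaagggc
Hoxc4: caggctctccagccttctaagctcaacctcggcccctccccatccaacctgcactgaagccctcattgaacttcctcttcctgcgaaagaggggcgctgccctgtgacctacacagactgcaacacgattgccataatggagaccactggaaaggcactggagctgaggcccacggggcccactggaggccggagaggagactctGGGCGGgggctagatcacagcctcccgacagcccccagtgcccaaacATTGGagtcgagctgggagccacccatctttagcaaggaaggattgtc
Hoxa5: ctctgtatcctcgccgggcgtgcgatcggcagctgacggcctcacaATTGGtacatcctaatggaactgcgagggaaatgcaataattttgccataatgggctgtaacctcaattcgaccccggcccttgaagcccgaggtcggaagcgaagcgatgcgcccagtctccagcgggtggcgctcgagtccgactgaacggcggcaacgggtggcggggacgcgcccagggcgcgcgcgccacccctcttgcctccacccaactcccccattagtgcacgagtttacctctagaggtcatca
Hoxd9: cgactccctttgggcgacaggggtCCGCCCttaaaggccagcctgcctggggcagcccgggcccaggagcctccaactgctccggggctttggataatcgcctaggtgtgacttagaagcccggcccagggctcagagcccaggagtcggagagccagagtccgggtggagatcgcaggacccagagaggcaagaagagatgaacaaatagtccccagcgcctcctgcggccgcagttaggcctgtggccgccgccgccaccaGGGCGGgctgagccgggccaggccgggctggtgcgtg
The site of the Cdx factors was searched as TTTATG, and Hoxa7 had 2 matches. It was found in 20.8% of the Hox entries and in 11.9% of all 32851 promoters of the table. The box bound by NF-Y was searched as CCAAT, with matches in Hoxa5 and Hoxc4, and was held by 62.5% of the Hox entries and by 37.4% of all. The site bound by Sp1 was searched as GGGCGG, with matches in Hoxc4 and Hoxd9, and was held by 41.7% of the Hox entries and by 35.7% of all. The core box bound by TBP was searched as TATAAA and was held by 16.7% of the Hox entries and by 13.6% of all. The joint site of Pbx and Hox proteins was searched as TGATTNAT and was held by 8.3% of the Hox entries and by 3.2% of all. Neither of these last motifs has those letters in the 4 windows shown, and a match is a match of letters only.

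Most Hox RNA in the libraries of sorted nerve endothelium came from the middle of the clusters, paralog groups 5 to 10. Markers of other nerve cells were high in the Tomato libraries, as given below. The part of those cells in the Hox levels was not tested. In intact nerve 25 of 39 members had a mean level of at least 1 CPM (counts scaled to library size, with TMM factors, within each experiment), in 7 dpi libraries 26, in 14 dpi libraries 25, in KO libraries 21 and in WT libraries 20. Levels between genes are given as CPM per kb of exon. Paralog groups 5 to 10, 18 of the members, made up 89.8% to 93.9% of the summed Hox level in intact nerve, 88.3% to 91.9% at 7 dpi and 90.0% to 92.8% at 14 dpi, and 91.5% to 93.2% in KO and 92.5% to 93.6% in WT libraries. Groups 1 to 4 held at most 9.22% in any library, and groups 11 to 13 at most 4%. Group 7, which has only Hoxa7 and Hoxb7, was the largest single one, with 35.8% of the mean Hox sum in intact nerve, 34.8% at 7 dpi and 34.4% at 14 dpi, and 42.4% in KO and 42.9% in WT bridges.

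Hoxb7 and Hoxa7 ranked 1 and 2 per kb in every group of both experiments. In intact nerve Hoxb7 stood at 35.7 ± 13.3 CPM per kb and Hoxa7 at 16.7 ± 3.13 (SD, n = 5), followed by Hoxb9 (11.4 ± 2.89), Hoxd9 (9.47 ± 2.95), Hoxd8 (7.16 ± 2.73) and Hoxc10 (6.25 ± 1.42). Each of these from Hoxb9 down lay within 1 SD of its neighbour in the order, and Hoxb7, the highest, had the largest SD. Hoxa7 counts, in CPM, were 44.0, 48.5, 46.1, 40.9 and 28.6 in intact nerve, 44.4, 33.7, 42.8, 37.3 and 33.6 at 7 dpi and 40.0, 35.5, 34.1 and 34.4 at 14 dpi, so the 3 stages overlapped. Hoxa9, a paralog of the rib and limb genes Hoxb9 and Hoxd9, stood at 25.8, 23.3, 18.1, 15.7 and 12.3 CPM in intact nerve, 22.6, 18, 20.6, 15.5 and 15.7 at 7 dpi and 29.7, 18.2, 19.2 and 14.4 at 14 dpi. Hoxd8 stood at 26.5, 28.6, 16.5, 15.5 and 11.2 CPM in intact nerve, 21.1, 18.6, 27, 13.3 and 9.97 at 7 dpi and 24.4, 21.5, 14.0 and 14.0 at 14 dpi. In all 3 genes the lowest intact library was replicate 5, which also had the lowest Hox sum (92.1 CPM per kb, against 144.4 to 172.0 in the other intact libraries), the lowest Pecam1 of the 20 libraries (734 CPM) and the most genes with a count (45590).

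In all 5 groups 13 members had a mean under 1 CPM, among them all 4 of group 13. Hoxd1 and Hoxd11 had no count in any of the 20 libraries, where 3 counts, the limit a count of 0 allows, are worth 0.0872 to 0.164 CPM depending on the library. Another 11 members stayed under a mean of 1 CPM in all 5 groups: Hoxa4, Hoxa11, Hoxa13, Hoxb1, Hoxb3, Hoxb13, Hoxc12, Hoxc13, Hoxd3, Hoxd12 and Hoxd13. Of these Hoxa4 had the most counts, 313, with a count in all 20 libraries. The paralogs of group 13, which pattern hands, feet and the tail end, added up to 10 counts for Hoxa13, 11 for Hoxb13, 104 for Hoxc13 and 14 for Hoxd13 over all 20 libraries. Hoxa11 had 170 counts and Hoxa10, its neighbour in the cluster, 9287. Hoxb3 and Hoxd3, described as pro-angiogenic in culture, had 93 and 142 counts, most of whose exon length is shared with other genes.

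**Figure D1:**
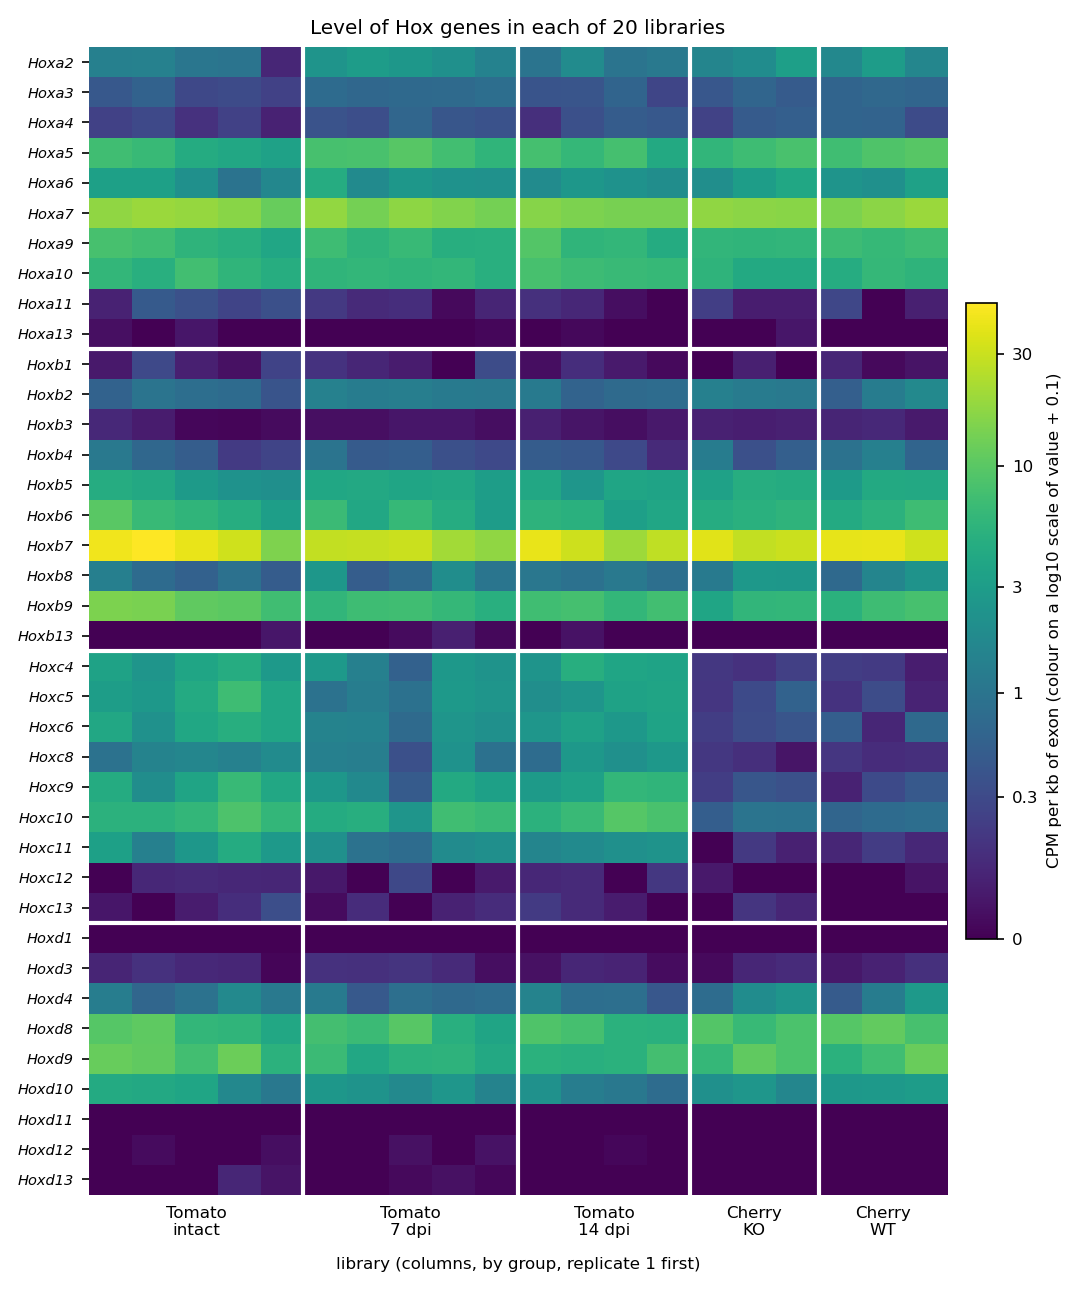
Rows are Hox genes by cluster (1 member is not shown), columns the 20 libraries by group, and colour the level in CPM per kb of exon on a log10 scale of value + 0.1. Hoxa7 and Hoxb7 are the brightest rows in all groups, the HoxC block is dark in the 6 Cherry libraries, and the rows of Hoxd1 and Hoxd11 hold no count.

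The HoxC genes from Hoxc4 to Hoxc11 were well above the floor in the Tomato libraries and low in the Cherry libraries. Of them only Hoxc10 had a mean of at least 1 CPM in both Cherry groups. The 7 from Hoxc4 to Hoxc11 had means of 2.34 to 14.1 CPM in the Tomato groups and stood at or under 1.89 CPM in every Cherry library. Hoxc10, which patterns the lumbar cord and hindlimb and is the highest HoxC gene per kb in intact nerve, stood at 10.1, 10.1, 11.5, 16.6 and 11.3 CPM in intact nerve, 8.48, 9.10, 4.62, 14.0 and 12.6 at 7 dpi and 10.1, 12.7, 18.1 and 15.7 at 14 dpi. In the Cherry bridges it stood at 1.04, 1.89 and 1.82 CPM in KO libraries and 1.25, 1.46 and 1.59 in WT libraries. Hoxc4 gave 0.439, 0.361 and 0.569 CPM in KO and 0.545, 0.488 and 0.164 CPM in WT libraries, against 1.5 to 6.85 CPM in the Tomato 7 dpi libraries, while Hoxa7 in the same Cherry libraries stood at 44.1, 41.4 and 40.8 CPM in KO and 35.9, 41.4 and 48.4 CPM in WT. Per library, the HoxC share of the summed Hox level was 10.6% to 27.5% in intact nerve, 5.43% to 20.7% at 7 dpi and 12.6% to 25.5% at 14 dpi, and 1.35% to 2.35% in KO and 1.52% to 1.84% in WT bridges. The 2 experiments differ in reporter and were scaled separately, so these levels are described and not tested.

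Perineurial markers and Dcn moved with the HoxC level over the stages, while the summed fibroblast markers were highest at 14 dpi. Cldn1, a tight junction gene of perineurial cells, stood at 936 to 1929 CPM in intact nerve, 69.1 to 475 at 7 dpi and 688 to 1549 at 14 dpi, and at 0.493 to 6.04 CPM in KO and 0.938 to 2.62 CPM in WT bridges. Krt19, another perineurial marker, was at 0 in 1 KO and 1 WT library and at most 0.481 CPM in any Cherry library. The 8 perineurial markers summed to 4791 to 7611 CPM in intact nerve, 618 to 1307 at 7 dpi and 1714 to 3824 at 14 dpi, and to 261 to 315 in KO and 447 to 470 in WT bridges. Every Tomato library was thus above every Cherry library, and every intact library above every one at 7 dpi. Slc2a1 was the largest member of this sum in intact libraries (mean 2506 CPM). It fell at 7 dpi against intact (log2 fold change -2.71 ± 0.22 SE, edgeR adjusted p = 1.48e-07). In Cherry libraries the sum was mostly Slc2a1 (121 to 186 CPM in KO, 174 to 212 CPM in WT), Itgb4 and Moxd1. How much RNA of these genes came from endothelial cells was not tested. Dcn, a fibroblast proteoglycan, stood at 34.1 to 199 CPM in KO and 59.5 to 67.0 CPM in WT bridges, against 703 to 14355 CPM in the Tomato libraries. The 12 fibroblast markers summed to 10074 to 18766 CPM in intact nerve, 4905 to 22424 at 7 dpi and 17975 to 38940 at 14 dpi, and to 966 to 3802 in KO and 1100 to 2620 in WT bridges. Tomato 7 dpi replicate 3 had the lowest HoxC share of the 14 Tomato libraries and also their lowest Cldn1 (69.1 CPM), Krt19 (5.58 CPM) and Dcn (703 CPM), with Hoxa7 at 42.8 and Hoxb7 at 39.1 CPM. Endothelial Pecam1 was at 734 to 2937 CPM in the Tomato and 2810 to 3256 CPM in the Cherry libraries. The part of these cells in the difference between the experiments was not tested, and in bulk RNA fewer cells of a type and less RNA per cell cannot be told apart.

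**Figure D2:**
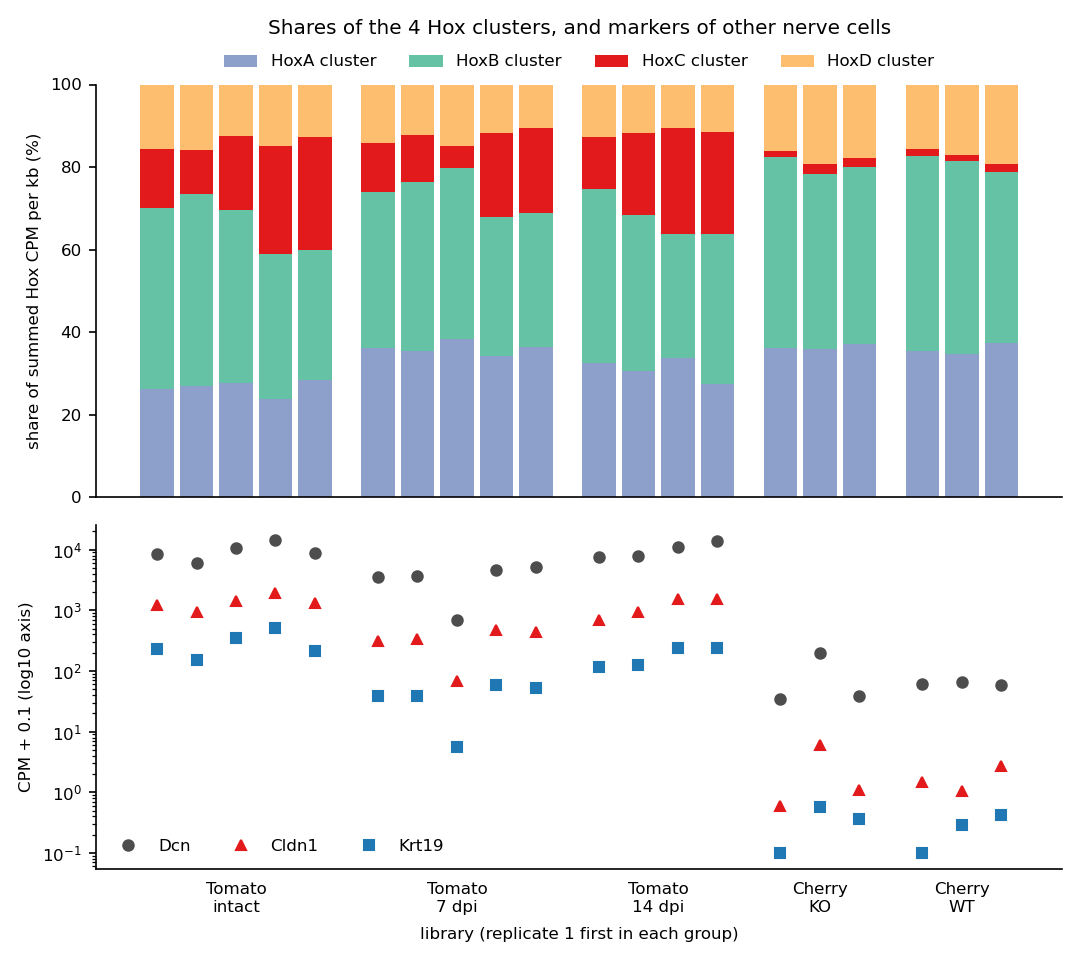
Upper panel, share of each Hox cluster in the summed Hox CPM per kb of each library. Lower panel, CPM + 0.1 of Dcn, Cldn1 and Krt19 in the same libraries on a log10 axis. The HoxC share is 5.43% to 27.5% in the 14 Tomato libraries and 1.35% to 2.35% in the 6 Cherry libraries, where Cldn1 is at most 6.04 CPM.

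Other marker lists set the frame. The 16 endothelial markers summed to 6746 to 16971 CPM in intact nerve, 9691 to 15042 at 7 dpi and 8791 to 10590 at 14 dpi, and to 15810.5 to 16643 in KO and 14903 to 16371 in WT bridges. At 7 dpi against intact 8 of the 16 rose and 3 fell, 7 of 10 mural cell markers fell, and of 11 Schwann cell markers tested 2 rose and 7 fell. Schwann markers summed to 565 to 1031 CPM in intact nerve, 169 to 268 at 7 dpi and 694 to 2530 at 14 dpi, and to 124 to 231 in KO and 159 to 495 in WT bridges. Ptprc, the gene of the CD45 antigen used to gate cells out, was at most 8.40 CPM in any library. The 10 macrophage markers summed to 30.7 to 48.4 CPM in intact nerve, 53.9 to 313 at 7 dpi and 39.7 to 984 at 14 dpi, the highest values being those of 7 dpi replicate 4 and 14 dpi replicate 3. Of 9 tested, Cd14 rose at 7 dpi against intact, and Adgre1 and C1qa rose at 14 dpi against intact (3.52 ± 1.04 and 4.43 ± 1.37 on the log2 scale, adjusted p = 0.0359 and 0.0439).

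The clusters also shifted against each other over the 3 stages. HoxA held 23.8% to 28.4% of the summed Hox level in intact nerve, 34.2% to 38.4% at 7 dpi and 27.5% to 33.9% at 14 dpi, so its share at 7 dpi lay above the other stages in every library. The HoxA sum itself overlapped, at 26.1 to 45.1 CPM per kb in intact nerve, 35.1 to 47.6 at 7 dpi and 33.1 to 45.7 at 14 dpi. The sum of all Hox genes averaged 143.9 ± 31.3 CPM per kb in intact nerve, 115.7 ± 12.9 at 7 dpi and 126.1 ± 10.7 at 14 dpi (SD). HoxB held 31.5% to 46.5% in intact nerve, 32.4% to 41.4% at 7 dpi and 30.0% to 42.2% at 14 dpi, and HoxD 12.5% to 15.8%, 10.5% to 14.8% and 10.7% to 12.7%, with overlap throughout. In the Cherry bridges HoxA held 35.9% to 37.1% in KO and 34.7% to 37.4% in WT libraries, HoxB 42.5% to 46.3% in KO and 41.5% to 47.2% in WT, and HoxD 16.2% to 19.2% in KO and 15.7% to 19.3% in WT. By paralog group, the summed level of group 9 was 30.9 ± 6.97 CPM per kb in intact nerve (SD, n = 5), 19.6 ± 1.94 at 7 dpi (n = 5) and 23.6 ± 1.48 at 14 dpi (n = 4). That of group 2 was 1.71 ± 0.721, 3.56 ± 0.639 and 2.08 ± 0.335 CPM per kb at the same stages, and that of group 11 was 3.20, 1.68 and 2.05. These shares and sums are descriptions, since the members' own tests follow.

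The noncoding Hotair, transcribed from within HoxC, was near the floor in the Cherry libraries. It stood at 2.79 to 5.41 CPM in intact nerve, 0.458 to 1.53 at 7 dpi and 1.87 to 2.74 at 14 dpi, and at most 0.274 CPM in any Cherry library. The antisense Hoxd3os1, beside Hoxd3, stood at 2.83 to 9.03 CPM in intact nerve and at 4.72 to 7.36 CPM in the Cherry libraries. Of 17 listed noncoding transcripts of the clusters 7 entered the Tomato test, and only Hotair was called in it: it fell at 7 dpi against intact (log2 fold change -1.51 ± 0.35 SE, edgeR adjusted p = 0.00274).

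At 7 dpi, 3 HoxA genes were called higher and 6 genes of the other clusters lower than in intact nerve. Hoxa2, Hoxa3 and Hoxa5 were higher, and Hoxb7, Hoxb9, Hoxc5, Hoxc6, Hoxc11 and Hoxd9 were lower. The test was edgeR's quasi-likelihood test with batch in the model and Benjamini-Hochberg adjustment over all 20409 genes, called at adjusted p under 0.05. It called 9 of the 29 members tested (31%), beside 32.0% of all genes (15.7% higher, 16.3% lower), so the share of members called was close to that of all genes. The median log2 fold change was -0.14 over the members and -0.10 over all genes. The 10 members outside the test had counts too low in all groups.

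Hoxa2, which patterns the hindbrain and hyoid arch, stood at 4.19, 5.36, 4.54, 3.80 and 2.59 CPM at 7 dpi, against 2.50, 2.53, 1.83, 1.73 and 0.165 CPM in intact nerve. The groups did not overlap, and the highest intact library lay just under the lowest at 7 dpi (log2 fold change 1.30 ± 0.43 SE, adjusted p = 0.0268). Hoxa3, needed for thymus and neck arteries, stood at 1.99, 1.82, 1.92, 1.98 and 2.18 CPM at 7 dpi, against 1.17, 1.55, 0.724, 0.816 and 0.592 CPM in intact nerve. All 5 libraries at 7 dpi were above all 5 intact ones (1.05 ± 0.38, adjusted p = 0.0452), at levels near 1 to 2 CPM. Hoxa5, which shapes the lung and neck skeleton, stood at 14.9, 15.4, 18.2, 13.9 and 10.6 CPM at 7 dpi, against 13.7, 12, 8.38, 7.58 and 6.42 CPM in intact nerve. Its groups overlapped in the 2 highest intact libraries (0.62 ± 0.20, adjusted p = 0.0238). Among their neighbours that did not pass, Hoxa4 had 1.16 ± 0.61 (adjusted p = 0.17) and Hoxa6 0.31 ± 0.34 (adjusted p = 0.563), and the higher-numbered Hoxa7, Hoxa9 and Hoxa10 had -0.11 ± 0.13, -0.02 ± 0.16 and -0.02 ± 0.14. The Hoxa2 value of 0.165 CPM in intact replicate 5 came from 5 counts.

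Among the genes that fell, Hoxb9, which acts with its paralogs on ribs and mammary gland, stood at 14.9, 18.2, 18.9, 15.8 and 12.8 CPM at 7 dpi, against 37.1, 35.9, 27.8, 26.7 and 18.9 CPM in intact nerve. Only the lowest intact library, replicate 5, reached the range at 7 dpi (log2 fold change -0.85 ± 0.15 SE, edgeR adjusted p = 3.05e-04). Hoxd9, a limb and lumbar gene, stood at 14.6, 8.56, 11.4, 11.7 and 8.72 CPM at 7 dpi, against 24.5, 23.1, 16.1, 26.2 and 11.3 CPM in intact nerve. Again the groups met only at intact replicate 5 (-0.88 ± 0.23, adjusted p = 0.00754). Hoxb7 stood at 36.0, 37.0, 39.1, 26.8 and 22.4 CPM at 7 dpi, against 55.9, 63.7, 51.4, 40.4 and 19.2 CPM in intact nerve. Here 4 intact libraries lay above all at 7 dpi and replicate 5 lay below them all (-0.48 ± 0.18, adjusted p = 0.0471).

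The other 3 falls were in HoxC. Hoxc5 stood at 2.76, 3.74, 2.67, 8.15 and 7.07 CPM at 7 dpi, against 9.03, 7.75, 12.8, 21 and 11.1 CPM in intact nerve, with overlap between the highest library at 7 dpi and the lowest intact one (log2 fold change -1.42 ± 0.23 SE, adjusted p = 1.15e-04). Hoxc6 stood at 2.35, 2.31, 1.21, 3.84 and 3.40 CPM at 7 dpi, against 6.31, 3.46, 6.13, 7.65 and 5.99 CPM in intact nerve (-1.21 ± 0.27, adjusted p = 0.00229). The groups met at intact replicate 2, the lowest intact library. Both belong to a stretch that marks the thoracic and forelimb level. Hoxc11, of the hindlimb level, stood at 4.4, 1.87, 1.62, 3.84 and 4.22 CPM at 7 dpi, against 6.61, 2.84, 5.14, 9.08 and 5.59 CPM in intact nerve (-0.88 ± 0.30, adjusted p = 0.0313). Here 3 libraries at 7 dpi lay above that same intact library. All 7 HoxC genes tested had negative values, and the 4 not called were Hoxc4 (-0.84 ± 0.32, adjusted p = 0.0577), Hoxc8 (-0.26 ± 0.40), Hoxc9 (-0.82 ± 0.33, adjusted p = 0.0687) and Hoxc10 (-0.33 ± 0.19). Beside them all 8 perineurial markers fell at 7 dpi (median log2 fold change -2.41), while 6 of 12 fibroblast markers rose and 2 fell, with Dcn among the falls (-1.49 ± 0.33, adjusted p = 0.00216). With the perineurial level as a covariate none of the 9 members was called. Hoxb9 had -0.89 (adjusted p = 0.303) and Hoxa2 2.32 (adjusted p = 0.336) in that fit, no smaller than without the covariate. Hoxa3 had 0.78, Hoxa5 0.39, Hoxb7 -0.39 and Hoxd9 -0.55, each smaller in size than without it. Of the HoxC genes Hoxc5 had -0.25, and the other 6 had positive values, namely 0.37 for Hoxc6, 0.79 for Hoxc11, 1.0 for Hoxc10, 1.64 for Hoxc4, 1.82 for Hoxc8 and 2.14 for Hoxc9. With the fibroblast level as a covariate all 7 were negative, from -0.74 for Hoxc10 to -1.69 for Hoxc9. The perineurial level did not overlap between 7 dpi and intact libraries, so it and the injury cannot be told apart in this fit. Whether endothelial cells added to that level was not tested.

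The remaining members were not called. Hoxb2, the paralog of Hoxa2 in the hindbrain, had 0.81 ± 0.33 (log2 fold change ± SE, edgeR adjusted p = 0.0747), and most of its exon length is shared with Hoxb3os. Hoxa10, a gene of the thigh and uterus, averaged 17.7 ± 1.49 CPM at 7 dpi and 18.1 ± 3.53 CPM in intact nerve (SD, n = 5 each), and Hoxb6 9.65 ± 3.06 and 11.9 ± 5.12 CPM, both well inside their spread. Hoxb5, described as pro-angiogenic, had 0.28 ± 0.22, Hoxb8 0.72 ± 0.41 and Hoxb4 0.07 ± 0.41. In HoxD, Hoxd4 had -0.52 ± 0.37, Hoxd8 -0.14 ± 0.17 and Hoxd10 -0.32 ± 0.30. Hoxa11 had -1.76 ± 0.84 (adjusted p = 0.13) at a mean of 0.238 CPM at 7 dpi and 0.701 CPM in intact nerve. In all, 13 of the 29 members had an unadjusted p under 0.05.

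**Figure D3:**
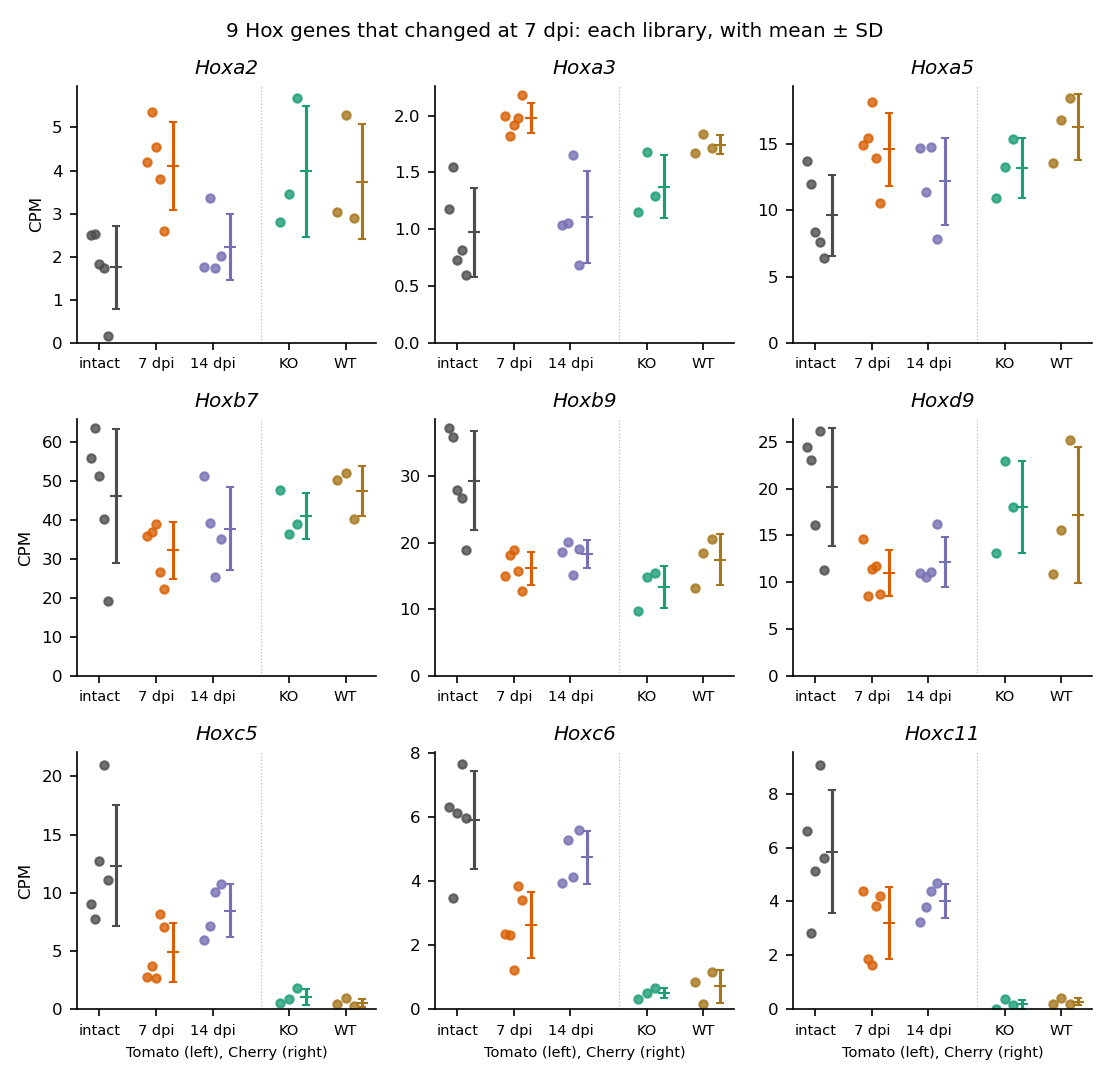
Each point is a library, in CPM from 0, for the 9 Hox genes called at 7 dpi, with the mean and SD beside each group, Tomato stages left of the dotted line and Cherry KO and WT right of it. Hoxa2 and Hoxa3 at 7 dpi lie above all intact libraries, and Hoxc5, Hoxc6 and Hoxc11 are under 2 CPM in the Cherry groups.

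Within batches the 9 genes kept their direction. On the log2(CPM + 1) scale the differences, 7 dpi minus intact, ran from 0.46 to 1.22 for the 3 rises and from -0.18 to -1.40 for the 6 falls. Hoxc5 differed by -0.92 in batch 1133 (2 against 2 libraries) and by -1.40 in batch 1292 (3 against 3), and Hoxb9 by -0.63 and -0.91. Hox genes also differed between batches: the batch term called 9 of 29 members (31%) beside 14.6% of all genes. The part of other cell types in this difference was not tested. Hoxa9, Hoxb4, Hoxb6, Hoxb7, Hoxd8 and Hoxd10 were higher in batch 1292, by 0.52 to 1.36 on the log2 scale, and Hoxc5, Hoxc9 and Hoxc10 were lower there, by -0.90, -0.91 and -0.61. The HoxC share was 10.6% to 17.8% in the 3 intact libraries of batch 1292 and 26.2% and 27.5% in the 2 of batch 1133, with Dcn at 5917 to 10810 and at 8906 and 14355 CPM. Leaving out 7 dpi replicate 3, 7 dpi replicate 4 or intact replicate 3 left 5 members called. Hoxb9, Hoxc5, Hoxc6 and Hoxd9 were called without any 1 of the 10 libraries, Hoxa3 was lost in 9 of these 10 fits, Hoxb7 in 8, Hoxc11 in 6, Hoxa5 in 5 and Hoxa2 in 2.

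By 14 dpi only Hoxb9 was called against intact nerve. It fell to 18.6, 20.1, 15.2 and 19 CPM at 14 dpi, against 37.1, 35.9, 27.8, 26.7 and 18.9 CPM in intact nerve, meeting intact replicate 5 alone (log2 fold change -0.63 ± 0.16 SE, edgeR adjusted p = 0.015). That is 1 of 29 members (3.45%) beside 12% of all genes called (6.86% higher, 5.09% lower), and the median was 0.01 over members and 0 over all genes. Hoxd9 stood at 11, 10.5, 11.1 and 16.2 CPM at 14 dpi, against 11.3 to 26.2 CPM in intact nerve (-0.72 ± 0.25, adjusted p = 0.0732), and Hoxd10 at 4.05, 2.34, 2.02 and 1.44 CPM, against 1.97 to 7.82 CPM (-0.99 ± 0.33, adjusted p = 0.0603). Within batches Hoxb9 differed by -0.38 in batch 1133 and by -0.76 in batch 1292. Without intact replicate 5 the count was 4, without 14 dpi replicate 4 it was 2, and without 14 dpi replicate 2 it was 0.

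Between 14 and 7 dpi, Hoxc5 was the 1 member called, 3.45% of 29 beside 9.93% of all genes (5.73% higher, 4.20% lower). It rose to 5.92, 7.14, 10.1 and 10.8 CPM at 14 dpi, against 2.76, 3.74, 2.67, 8.15 and 7.07 CPM at 7 dpi (0.79 ± 0.23, edgeR adjusted p = 0.0408), with overlap between the groups. All 7 HoxC genes tested had positive values, from 0.30 for Hoxc11 to 0.91 for Hoxc4, with a median of 0.79, beside 0.06 over all genes. Hoxc6 stood at 3.95, 5.29, 4.12 and 5.60 CPM at 14 dpi, against 1.21 to 3.84 CPM at 7 dpi, without overlap but not called (0.86 ± 0.28, adjusted p = 0.0648). Perineurial markers moved alongside, in that 6 of 8 rose at 14 against 7 dpi, Cldn1 by 1.78 ± 0.32 (adjusted p = 0.00216), and 4 of 12 fibroblast markers rose. With the perineurial level as a covariate Hoxc5 had 0.13 and the other 6 HoxC genes had negative values, from -0.03 for Hoxc6 to -0.84 for Hoxc9. With the fibroblast level Hoxc5 had 0.44 and Hoxc6 0.38, and the other 5 had negative values, from -0.06 for Hoxc4 to -0.38 for Hoxc8. None was called with either covariate, and the perineurial level did not overlap between 14 and 7 dpi libraries, so it and the time after injury cannot be told apart. The Hoxc5 call was lost on leaving out any library of the 9 but 7 dpi replicate 4, and within batches the difference was 0.41 in batch 1133 and 0.90 in batch 1292. The 7 dpi libraries enter both this comparison and that with intact nerve.

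**Figure D4:**
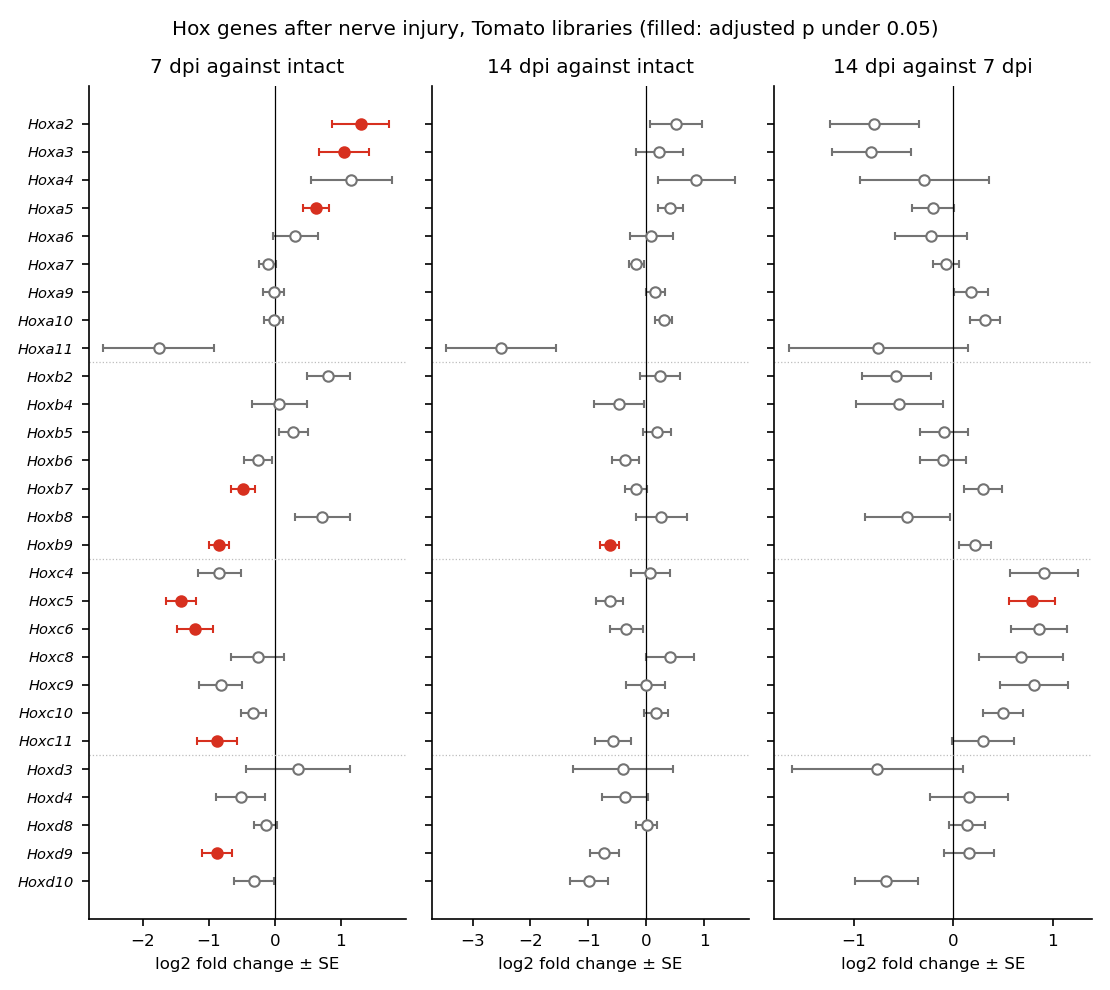
Log2 fold change ± SE of the Hox genes tested (1 is not shown) in 3 comparisons of the Tomato libraries, by cluster from HoxA at the top to HoxD. Filled points have an adjusted p under 0.05: 9 at 7 dpi against intact, Hoxb9 at 14 dpi against intact, and Hoxc5 at 14 against 7 dpi.

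Plxnd1, a semaphorin receptor of vessels and the deleted gene, stood at 131.4 to 160.5 CPM in KO and 324 to 350 CPM in WT libraries. No Hox gene was called between KO and WT bridges. Of 25 members tested 0 were called by edgeR (2 had an unadjusted p under 0.05, and DESeq2 called 0), beside 0.308% of 16227 genes (0.129% higher, 0.179% lower). Batch 1292 holds 1 KO and 2 WT libraries and batch 1133 2 KO and 1 WT library, and batch was a term of the model. Of 6 perineurial markers tested in this experiment 1, Moxd1, fell, and the sum of the 8 listed lay at 261 to 315 CPM in KO and 447 to 470 CPM in WT libraries. Their part in the Hox values was not tested. Values were negative for 19 and not negative for 6 of the 25, with a median of -0.16 over members and -0.01 over all genes. The SE of single genes ran from 0.12 to 0.86, so small differences were not detectable at this number of libraries.

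Hoxb7 stood at 47.7, 36.4 and 38.9 CPM in KO and 50.2, 52.1 and 40.2 CPM in WT bridges (log2 fold change -0.10 ± 0.12 SE, edgeR adjusted p = 0.783), and Hoxa7 differed by -0.02 ± 0.13. Hoxb9 stood at 9.70, 14.9 and 15.4 CPM in KO and 13.2, 18.5 and 20.6 CPM in WT (-0.57 ± 0.19, adjusted p = 0.29). Hoxa5 stood at 10.9, 13.3 and 15.4 CPM in KO and 13.6, 16.8 and 18.5 CPM in WT (-0.42 ± 0.18, adjusted p = 0.412). These are the 2 genes with an unadjusted p under 0.05, and their groups overlap. Within batches, on the log2(CPM + 1) scale, Hoxb9 differed by -0.42 in batch 1133 and -0.63 in batch 1292, and Hoxa5 by -0.35 and -0.43. Hoxa9 stood at 19, 18.2 and 18.6 CPM in KO and 22.4, 20.4 and 22.7 CPM in WT, without overlap and not called (-0.24 ± 0.15, adjusted p = 0.567). The other member without overlap was Hoxd10, at 2.92 to 4.51 CPM in KO and 4.75 to 5.44 CPM in WT. It was not called either (-0.42 ± 0.30, adjusted p = 0.616). How often all genes lacked overlap was not counted. Hoxa2 stood at 2.80, 3.46 and 5.69 CPM in KO and 3.04, 5.29 and 2.90 CPM in WT (0.05 ± 0.42), and Hoxa3 at 1.15, 1.68 and 1.29 CPM in KO and 1.67, 1.84 and 1.72 CPM in WT (-0.40 ± 0.44). Both genes, called in the injured Tomato libraries, overlapped between genotypes. Hoxd8 stood at 25.4, 17.7 and 22.9 CPM in KO and 26.2, 30.0 and 21.9 CPM in WT (-0.13 ± 0.16). Hoxd9 stood at 13.1, 22.9 and 18 CPM in KO and 10.9, 15.6 and 25.2 CPM in WT (-0.16 ± 0.19), and it and Hoxd4 were the 2 members called for batch, lower in batch 1292 by -0.79 and -1.54 (9.87% of all genes were called for batch). The HoxC genes Hoxc5, Hoxc6 and Hoxc11 stood at 0 to 1.78 CPM in KO and 0.150 to 1.14 CPM in WT libraries.

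**Figure D5:**
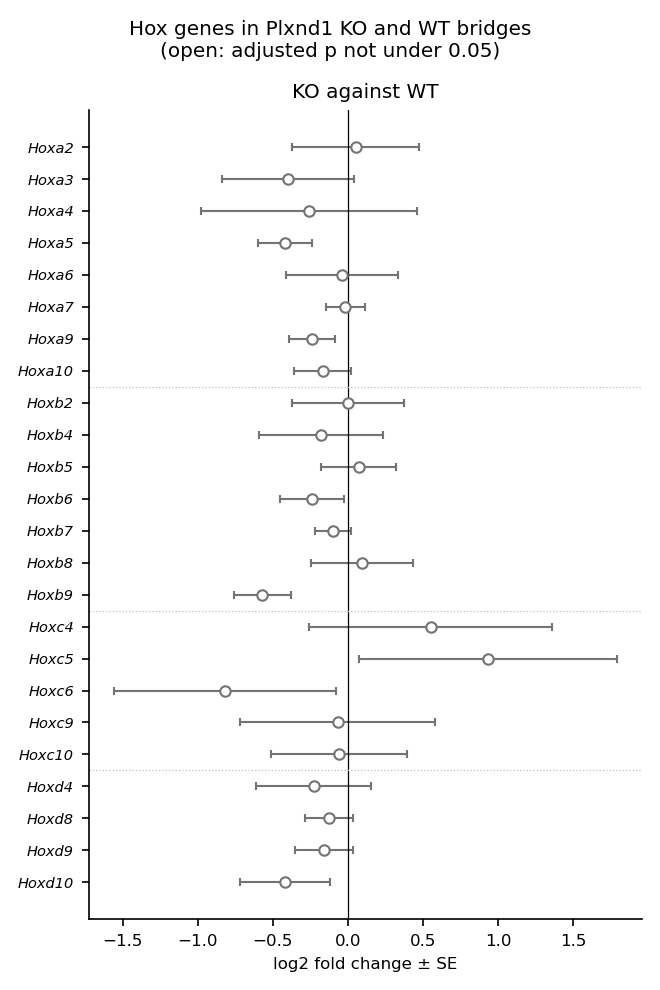
Log2 fold change ± SE, KO against WT, of the Hox genes tested (1 is not shown) in the 6 Cherry libraries. All points are open, since none had an adjusted p under 0.05, and the bars widen for the low HoxC genes.

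Genes that work with Hox proteins or on Hox clusters were followed as lists. Each list goes by a short name that need not describe every gene in it. Their counts stand beside 15.7% of all genes called higher and 16.3% called lower at 7 dpi against intact. In either direction 5 of 10 TALE cofactors, 8 of 21 Polycomb genes, 4 of 12 Trithorax genes and demethylases, 5 of 12 Cdx and retinoic acid regulators and 3 of 8 limb position factors were called at 7 dpi, beside 32.0% of all genes, and nothing is read from these counts about a list as a whole. The share of all genes called was 12% at 14 dpi against intact and 9.93% at 14 against 7 dpi. Of 10 TALE cofactors, the DNA-binding partners of Hox proteins, 2 rose and 3 fell at 7 dpi against intact nerve. Pbx3 stood at 16.2 ± 1.58 CPM at 7 dpi and 5.86 ± 1.71 CPM in intact nerve (log2 fold change 1.48 ± 0.20 SE, adjusted p = 2.03e-05), and Tgif1, a repressor of the same family, rose by 1.19 ± 0.17 (adjusted p = 3.94e-05). Meis2 stood at 12.3 ± 2.20 CPM at 7 dpi and 24.9 ± 4.43 CPM in intact nerve (SD, n = 5 each, log2 fold change -1.0 ± 0.16, adjusted p = 1.33e-04), and Meis1 fell by 1.03 on the log2 scale (adjusted p = 0.00111). Tgif1 and Pbx3 were the 2 that rose at 14 dpi against intact, by 0.90 and 0.77, and Pbx3 fell at 14 against 7 dpi (-0.71 ± 0.21, adjusted p = 0.039).

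Of 21 Polycomb genes 6 rose and 2 fell at 7 dpi. Ezh2, a histone H3K27 methyltransferase of dividing cells, stood at 20.4 ± 4.17 CPM at 7 dpi and 4.28 ± 1.49 CPM in intact nerve (2.27 ± 0.22, adjusted p = 6.54e-07), and Phf19, which recruits it, rose by 2.19 (adjusted p = 0.00226). Ezh1, its paralog in resting cells, fell by 1.23 (adjusted p = 4.15e-06), and Cbx7, which reads the mark, stood at 10.3 ± 2.78 CPM at 7 dpi and 67.9 ± 10.8 CPM in intact nerve (-2.72 ± 0.19, adjusted p = 2.17e-08). At 14 dpi against intact 4 rose and 2 fell, and at 14 against 7 dpi 3 rose and 1 fell, with Cbx7 1.21 higher and Phf19 2.14 lower (-2.14). Of 12 genes on the list of Trithorax and demethylase genes 3 rose at 7 dpi, and Ash1l fell by 0.41 (edgeR adjusted p = 0.0412). Among the rises were Dot1l by 1.21, a gene of neither kind, and Wdr5 by 0.55. At 14 dpi against intact 1 rose and 0 fell, and 0 were called at 14 against 7 dpi (3 at unadjusted p under 0.05).

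Cdx and retinoic acid genes set Hox domains in the embryo, and their list of 14 also held others, such as Zbtb16 and Gmnn. Of these 14 genes 12 were tested, and 3 rose and 2 fell at 7 dpi. Aldh1a1, which makes retinoic acid, stood at 2.5 ± 1.5 CPM at 7 dpi and 64.8 ± 26.4 CPM in intact nerve (-4.74 ± 0.35, adjusted p = 4.41e-08), and Zbtb16 fell by 4.12 (adjusted p = 6.12e-05). Cyp26a1, which degrades retinoic acid, stood at 3.18 ± 1.91 CPM at 7 dpi and 0.356 ± 0.522 CPM in intact nerve (3.18 ± 0.99, adjusted p = 0.0211), and Gmnn rose by 1.87. At 14 dpi 1 rose and 2 fell against intact, and 1 rose and 1 fell against 7 dpi. Among 14 other limb position factors 8 were tested and 3 fell at 7 dpi, with Shox2 at 5.32 ± 1.48 CPM at 7 dpi and 13.2 ± 1.35 CPM in intact nerve (-1.31 ± 0.22, adjusted p = 1.99e-04) and Prrx1, a mesenchymal limb factor, lower by -0.50. None was called at 14 dpi against intact (edgeR; 0 at unadjusted p under 0.05), and 2, Prrx1 and Shox2, rose at 14 against 7 dpi. The hindlimb factor Tbx4 and the forelimb factor Tbx5 reached at most 0.930 and 0.559 CPM in all 20 libraries, and Pitx1, another hindlimb factor, reached 2.38 CPM.

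Of 12 genes reported as Hox-regulated in cultured endothelium 11 rose and 0 fell at 7 dpi, beside 15.7% of all genes higher. The list was chosen with earlier results of these data known, and nothing is read from the count about Hox activity. Whether Hox genes act on these genes in nerve endothelium was not tested. Itgb3, an integrin subunit, stood at 81.7 ± 28.2 CPM at 7 dpi and 16.8 ± 7.08 CPM in intact nerve (2.31 ± 0.21, adjusted p = 4.85e-07), and Itga5 rose by 1.55 (adjusted p = 3.38e-06). At 14 dpi 7 rose against intact, Mmp14 by 1.5 among them, and 5 fell against 7 dpi, including Plaur (-1.29 ± 0.20, adjusted p = 7.24e-04). Between KO and WT, Sele, an adhesion molecule for leukocytes, was the 1 gene of these lists called: it stood at 308 ± 28.5 CPM in KO and 468 ± 85.8 CPM in WT libraries (SD, n = 3 each, log2 fold change -0.70 ± 0.10, edgeR adjusted p = 0.00994). In the other 6 lists none was called between KO and WT, with 1 TALE, 2 Polycomb, 3 Trithorax, 3 retinoic acid, 0 limb and 0 noncoding genes at unadjusted p under 0.05.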

How the data were processed

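Bulk RNA was measured in 20 libraries of sorted sciatic nerve endothelial cells, 14 Tomato and 6 Cherry. The authors deposited raw counts per gene, 1 table for each experiment, and a Cherry table of counts corrected with ComBat-Seq, used as an alternative. Trimmomatic 0.39, STAR 2.5.3a, featureCounts 1.6.4, Cell Ranger 3.0.2 and the genome mm10 are named, per the submitters' processing notes. The annotation release, strand setting and handling of multi-mapped reads were not given in the sources used here. All 39 members were found in GENCODE M21, 27 with the same coordinates as in the deposited tables. All sample columns were mapped. Values of 1 member are not reported here, though counts over the members include it.

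The count test was the robust quasi-likelihood F test of edgeR 4.0.16 (R 4.3.3), after filterByExpr and TMM, with batch in the model, Benjamini-Hochberg adjustment and a threshold of 0.05. The 14 Tomato libraries shared 1 fit and the 6 Cherry libraries had their own, with 20409 and 16227 genes tested. CPM are TMM-scaled within an experiment, and exon lengths came from the deposited tables. Library totals were 19057029 to 34181449 counts in Tomato and 19253137 to 33793402 in Cherry libraries, where 3 counts are worth 0.0872 to 0.164 CPM. That floor covers counting error only. The steps were tested on simulated data.

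Written out library by library were the members called in any comparison and the 2 highest per kb of each cluster in intact nerve, 13 in all, and of each partner list up to 2 called rises and 2 falls of smallest p. Hoxc4, Hoxd10 and others named beside them were chosen after their values were seen. The members and lists were chosen with earlier results of these data known. Replicate numbers follow the order of accession and pair no libraries. No 2 replicates agreed within counting noise, since chi-square divided by its degrees of freedom was 18.2 to 149 over 32 pairs. Alternatives were other scalings, DESeq2 1.42.0, no filter, no batch term, single batches, the compared groups alone, marker covariates, leaving out each library, and the ComBat-Seq table.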

Additional observations from a re-analysis of the deposited data

Results flagged for a closer look

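Among the 13 genes given library by library, 39 groups of 4 or 5 libraries were examined for a library far from the rest, a check that chance meets in about 1 of 20 groups, and 3 had one. Hoxa2 stood at 3.36 CPM in 14 dpi replicate 2, with the other 14 dpi libraries at 1.75 to 2.01 CPM. Hoxc10 stood at 16.6 CPM in intact replicate 4, with the others at 10.1 to 11.5 CPM, and that library also had the highest Cldn1 (1929 CPM), Krt19 (513 CPM) and Dcn (14355 CPM) of the 14 Tomato libraries. Hoxd9 stood at 16.2 CPM in 14 dpi replicate 4, with the others at 10.5 to 11.1 CPM.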

How the results depend on the processing

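At 7 dpi against intact, where 9 members were called, 5 were called with no batch term, 0 with the perineurial covariate and 0 in batch 1133 alone. DESeq2 called 13, other scalings 9 and 10, no filter 9, the fibroblast covariate 8 (all lower), batch 1292 alone 6 and the 2 groups alone 9, and leaving out 1 library gave 5 to 10. With the perineurial covariate Hoxc6 had 0.37, Hoxc11 0.79, Hoxc10 1.0, Hoxc4 1.64, Hoxc8 1.82 and Hoxc9 2.14 at 7 dpi, and Hoxc9 1.30 (adjusted p = 0.0357) at 14 dpi against intact, each opposite in sign to the value without it. At 14 against 7 dpi the same covariate gave Hoxc4 -0.51, Hoxc6 -0.03, Hoxc8 -0.56, Hoxc9 -0.84, Hoxc10 -0.27 and Hoxc11 -0.65, again opposite in sign. At 14 dpi against intact, where 1 was called, 2 were called with RLE size factors, 4 with library size only, 4 by DESeq2, 0 with the fibroblast covariate and 0 in batch 1133 alone, and the range on leaving out 1 library was 0 to 4. At 14 against 7 dpi, where 1 was called, 2 were called by DESeq2, 3 with no filter, and 0 with no batch term, either covariate or either batch alone, with 0 to 1 on leaving out 1 library. The causes were not tested. KO against WT gave 0 under all 13 alternatives, with 0 to 0 on leaving out 1 library. No paired analysis was possible because the replicate numbers are only an order of accession and no label says which libraries share an animal, nerve pool or day. Batch was a term of the model.

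Depth was 19057029 counts or more per library, so members with a mean under 1 CPM rest on few counts, and batch 1133 alone has 2 libraries per Tomato group.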
